A study of Mus musculus with 2 samples.

Results

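The genes described here encode the transport machinery of the primary cilium: the intraflagellar transport (IFT) complexes A and B, the BBSome with its chaperones and its GTPase, the dynein-2 motor, and the adaptor TULP3 with its receptor cargo GPR161. They were taken by symbol from the deposited matrix of gene counts. All 37 symbols of the list were found, among 17260 genes. By complex, 6 belong to IFT-A, 15 to IFT-B, 10 to the BBSome group, 4 to dynein-2 and 2 to the TULP3 group. Messenger RNA was sequenced from mouse embryonic fibroblasts, connective tissue cells in culture, with 1 wild-type (WT) library and 1 library labelled Ahi1-/-. Both cultures were of strain C57BL/6, from embryos at day 13.5, and were grown in DMEM with 10% serum. The sources used here do not give how the Ahi1 allele was made, how many embryos were pooled or the passage.

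The primary cilium is a single antenna built on the mother centriole of most fibroblasts, and it has no ribosomes of its own. IFT-B trains driven by kinesin-2 carry proteins to the tip, and IFT-A with dynein-2 brings the trains back. The BBSome rides on these trains and removes signalling receptors from the ciliary membrane, whereas TULP3 works with IFT-A to bring receptors in. The product of Ahi1 sits in the transition zone, the gate at the base of the cilium through which this traffic passes. The comparison asks how transcripts of this machinery differed between fibroblasts labelled Ahi1-/- and wild-type fibroblasts.

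The libraries held 19067504 (WT) and 20820756 (labelled Ahi1-/-) expected counts. With 1 library for each genotype no test was possible. A difference between the libraries therefore cannot be told apart from a difference between any 2 cultures, and the intervals given are 95% intervals for counting error only. Ahi1 itself had 410 counts in WT and 370 in the other library (log2 ratio -0.16, interval -0.37 to 0.05), which leaves the label without a check from its own gene, and the second library is called the Ahi1-/- labelled library, by its label only. Which library is which rests on reading the column heads CON and EXP as control and experimental. In bulk RNA, fewer cells that express a gene and less RNA per cell cannot be told apart.

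Most of the transport genes had fewer transcripts in the Ahi1-/- labelled library. The ratio of a gene is its scaled count in that library over its scaled count in WT. It was below 1 for 32 of the 37 genes, against 50.7% of the 14485 genes whose counts in both libraries summed to at least 10. The median log2 ratio was -0.48 over the 37 genes and -0.01 over those 14485. Calls needed a minimum of 50 counts in whichever library was higher. At least 2-fold lower were 8 of the 37 (21.6%), against 10.3% of 12075 genes with that minimum. These were Bbs1, Bbs9, Bbs2, Bbs12, Bbs10, Ift80, Ift81 and Dync2li1. One gene, Ift20, was at least 2-fold higher (2.70% of the list, against 16.0% of all genes). At 1.5-fold, 15 genes were lower and 3 higher, against 21.6% and 23.6% of all genes. All 37 had the minimum count, and the fewest counts of any of them were 43, for Bbs10.

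**Figure D1:**
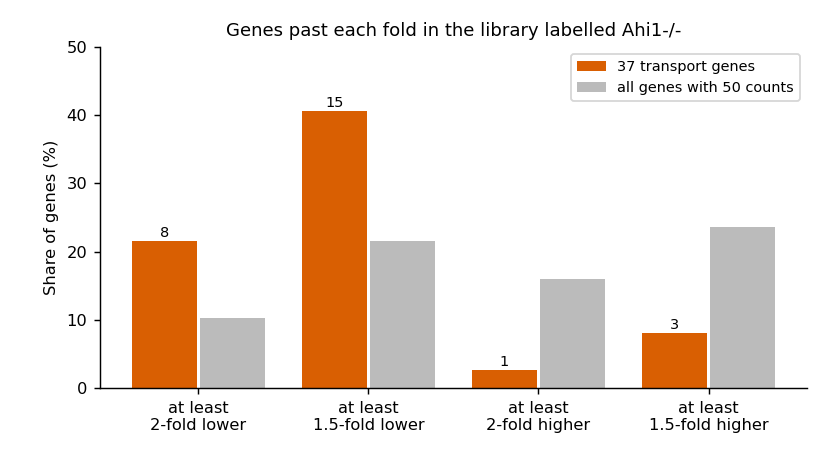
Share of genes (percent, y axis) at least 2-fold or 1.5-fold lower or higher in the Ahi1-/- labelled library, for the 37 transport genes (orange, number of genes above the bar) and for all genes that met the minimum of 50 counts (grey). The transport genes exceed the grey bars among the lower genes (8 and 15 genes) and stay under them among the higher genes (1 and 3 genes).

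The promoters of these genes were searched for the binding element of RFX factors, the transcription factors known to drive many ciliary genes. RefSeq sequences on GRCm38.p6, from 250 bases before to 50 bases after a start, were found for 32 of the 37 genes. Those without an entry were Ift80, Ift81, Ift122, Ttc30b and Dync2li1. The RFX core site GTTGCC, searched on both strands, occurred in 12 of the 32 (37.5%) and in 14.1% of all 27025 genes with a promoter. The full X-box, 2 such core sites in opposite orientation and 0 to 3 bases apart in their degenerate form, occurred in Bbs1 and Ift57 (6.25%, against 1.75% of all genes). An X-box can contain the core site, so the sets overlap. A match is a run of letters and not a site shown to be bound. Promoters with and without the core site are shown for genes low and high in the Ahi1-/- labelled library. Each stretch holds the 120 bases before the start and runs on to the end of a match that begins just after it. Matches are in capitals.
Bbs1 (chr19:4906613-4906747, minus strand): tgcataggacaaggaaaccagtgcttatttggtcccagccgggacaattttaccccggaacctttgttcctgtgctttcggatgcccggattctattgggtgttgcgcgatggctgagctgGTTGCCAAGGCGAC
Ift57 (chr16:49699174-49699293, plus strand): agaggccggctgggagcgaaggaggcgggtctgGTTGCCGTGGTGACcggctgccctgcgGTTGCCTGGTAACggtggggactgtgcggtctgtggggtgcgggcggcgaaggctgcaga
Ttc26 (chr6:38381404-38381530, plus strand): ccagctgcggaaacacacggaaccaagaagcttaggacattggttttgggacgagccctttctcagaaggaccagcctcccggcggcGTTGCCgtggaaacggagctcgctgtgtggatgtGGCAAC
Ift140 (chr17:25015966-25016085, plus strand): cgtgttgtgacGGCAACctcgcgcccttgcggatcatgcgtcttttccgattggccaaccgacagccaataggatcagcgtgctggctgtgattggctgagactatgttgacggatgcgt
Bbs2 (chr8:94098510-94098629, minus strand): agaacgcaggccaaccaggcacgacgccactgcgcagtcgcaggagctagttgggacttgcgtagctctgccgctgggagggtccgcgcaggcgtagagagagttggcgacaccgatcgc
Ift20 (chr11:78536241-78536360, plus strand): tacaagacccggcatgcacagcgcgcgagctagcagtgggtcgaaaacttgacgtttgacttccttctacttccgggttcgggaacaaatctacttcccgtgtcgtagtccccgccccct
The X-box of Bbs1 lies within the first 15 transcribed bases, while Ift57 has a pair of X-boxes before its start. Bbs2, among the lowest genes, and Ift20, the highest, had no match. The 12 genes with a core site all had ratios below 1 (median log2 ratio -0.47, from -2.18 to -0.12). Of the 20 without one, 16 did, and the median was almost the same (-0.44, from -1.70 to 1.10).

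The BBSome group held the lowest ratios. BBS1, BBS2, BBS4, BBS5, BBS7, BBS9 and TTC8 are subunits of the octameric coat. Bbs1 (Entrez gene 52028), whose product binds the GTPase ARL6 and so docks the coat on membranes, had 625 counts in WT and 139 in the Ahi1-/- labelled library, or 11.95 and 2.71 TPM. This was 4.54-fold lower (interval 3.77 to 5.49), rank 261 from the lowest among 12075 genes. Bbs9 (Entrez gene 319845), a scaffold subunit, had 339 and 105 counts (10.97 and 3.38 TPM) and was 3.26-fold lower (2.61 to 4.09). Bbs2 (Entrez gene 67378), which forms the core of the coat with BBS7 and BBS9, had 414 and 139 counts (17.01 and 5.85 TPM), 3.01-fold lower (2.47 to 3.67). These 3 subunits stood apart from the other 4, whose counting intervals all lay within 2-fold.

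The other 4 subunits differed less. Ttc8, a subunit rich in tetratricopeptide repeats, had 482 and 373 counts (23.08 and 18.30 TPM) and was 1.30-fold lower (log2 interval -0.58 to -0.18). Bbs7 had 294 and 249 counts, 1.19-fold lower (log2 ratio -0.25, lower limit -0.50, upper limit just under 0). Bbs5, which binds phosphoinositides, had 153 and 129 counts (log2 ratio -0.26, -0.61 to 0.09). Bbs4 had 130 and 143 counts (log2 ratio 0.12, -0.23 to 0.48). The intervals of Bbs5 and Bbs4 span 0, so a difference was not detectable at this depth. Transcripts of subunits of 1 coat thus ranged over log2 ratios from -2.18 to 0.12. In WT the 7 subunits lay between 5.64 and 23.08 TPM, and in the Ahi1-/- labelled library between 2.71 and 18.30 TPM. Ttc8 was the highest of the 7 in both libraries, and the lowest was Bbs4 in WT and Bbs1 in the other.

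The helpers of the BBSome among the 37 genes were lower too. BBS10 and BBS12 resemble chaperonins and help to fold and assemble the coat. Bbs12 (Entrez gene 241950) had 423 counts in WT and 145 in the Ahi1-/- labelled library (13.23 and 4.41 TPM), 2.94-fold lower (2.43 to 3.58). Bbs10 (Entrez gene 71769) had 90 and 43 counts (3.55 and 1.74 TPM), 2.11-fold lower (1.45 to 3.11). With the fewest reads, it had the widest interval of the 8 lower genes on the log2 scale (-1.64 to -0.54). Bbs10 was the least abundant of the 37 genes in the Ahi1-/- labelled library. Mkks, another chaperonin-like BBSome gene outside the 37, was named after its value was seen. It had 372 and 350 counts (log2 ratio -0.10, -0.32 to 0.11), so not all such helpers were detectably lower. The GTPase gene Arl6 had 291 and 223 counts (21.12 and 16.51 TPM), 1.32-fold lower (1.10 to 1.57). For the group of 10, the median log2 ratio was -0.74, and 5 were at least 2-fold lower.

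IFT-B, the larger train complex, had 13 of 15 genes below a ratio of 1, with a median log2 ratio of -0.40. Ift80 (Entrez gene 68259), a peripheral subunit mutated in human Jeune syndrome, had 1425 counts in WT and 489 in the Ahi1-/- labelled library (37.70 and 13.39 TPM), 2.94-fold lower (2.65 to 3.27). Ift81 (Entrez gene 12589), which binds tubulin cargo together with IFT74, had 712 and 341 counts (26.61 and 13.35 TPM), 2.11-fold lower (1.85 to 2.40). By the ratio of TPM it was 1.99-fold lower and with the median of its chromosome subtracted 1.91-fold, both short of 2-fold. Its partner Ift74 had 795 and 530 counts (40.62 and 27.59 TPM), 1.51-fold lower (1.35 to 1.69). The intervals of these partners do not overlap, so their transcripts differed in ratio beyond counting error.

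A middle group of IFT-B genes was 1.5-fold to 2-fold lower. Ift57 had 572 and 346 counts (24.51 and 15.19 TPM), 1.67-fold lower (1.46 to 1.91). Cluap1, which encodes the peripheral subunit also called IFT38, had 224 and 138 counts (14.38 and 8.15 TPM), 1.64-fold lower (1.32 to 2.04). Ift88, the core subunit altered in the Oak Ridge polycystic kidney mouse, had 356 and 229 counts (12.50 and 8.28 TPM), 1.57-fold lower (1.32 to 1.86). Ttc26, at 300 and 203 counts, fell just outside this group (1.49-fold lower, 1.24 to 1.79).

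The remaining IFT-B genes differed less. Ift172, Ift22, Ift46 and Ift52 were 1.24-fold to 1.32-fold lower, each with an interval below 0 on the log2 scale. Ift22, a small GTPase-like subunit, was the most abundant IFT-B gene in WT, with 412 and 321 counts (44.77 and 34.68 TPM, log2 ratio -0.37, -0.59 to -0.16). IFT52 is a scaffold of the core. Ift27, which encodes a Rab-like GTPase that links trains to BBSome exit, had 379 and 347 counts (43.00 and 40.32 TPM, log2 ratio -0.14, -0.35 to 0.07). Traf3ip1, a microtubule-binding subunit, had 283 and 262 counts (log2 ratio -0.12, -0.37 to 0.12). For both, a difference was not detectable at this depth. Ttc30b had 164 and 167 counts (log2 ratio 0.01, -0.31 to 0.33), but its reads can be shared with the near-identical copy Ttc30a1 (53 and 119 counts), so each of the pair is uncertain. Summed, the copies had 217 and 286 counts (log2 ratio 0.39, 0.13 to 0.65).

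Ift20 was the exception in IFT-B. This subunit is also found at the Golgi, where it takes part in sending membrane proteins to the cilium. Ift20 (Entrez gene 55978) had 383 counts in WT and 827 in the Ahi1-/- labelled library (37.61 and 83.19 TPM), 2.14-fold higher (1.89 to 2.42). It moved from the seventh highest of the 37 genes in TPM to the highest. The call at 2-fold depended on scaling: it was 1.98-fold by total counts and 1.94-fold with the median of its chromosome subtracted.

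**Figure D2:**
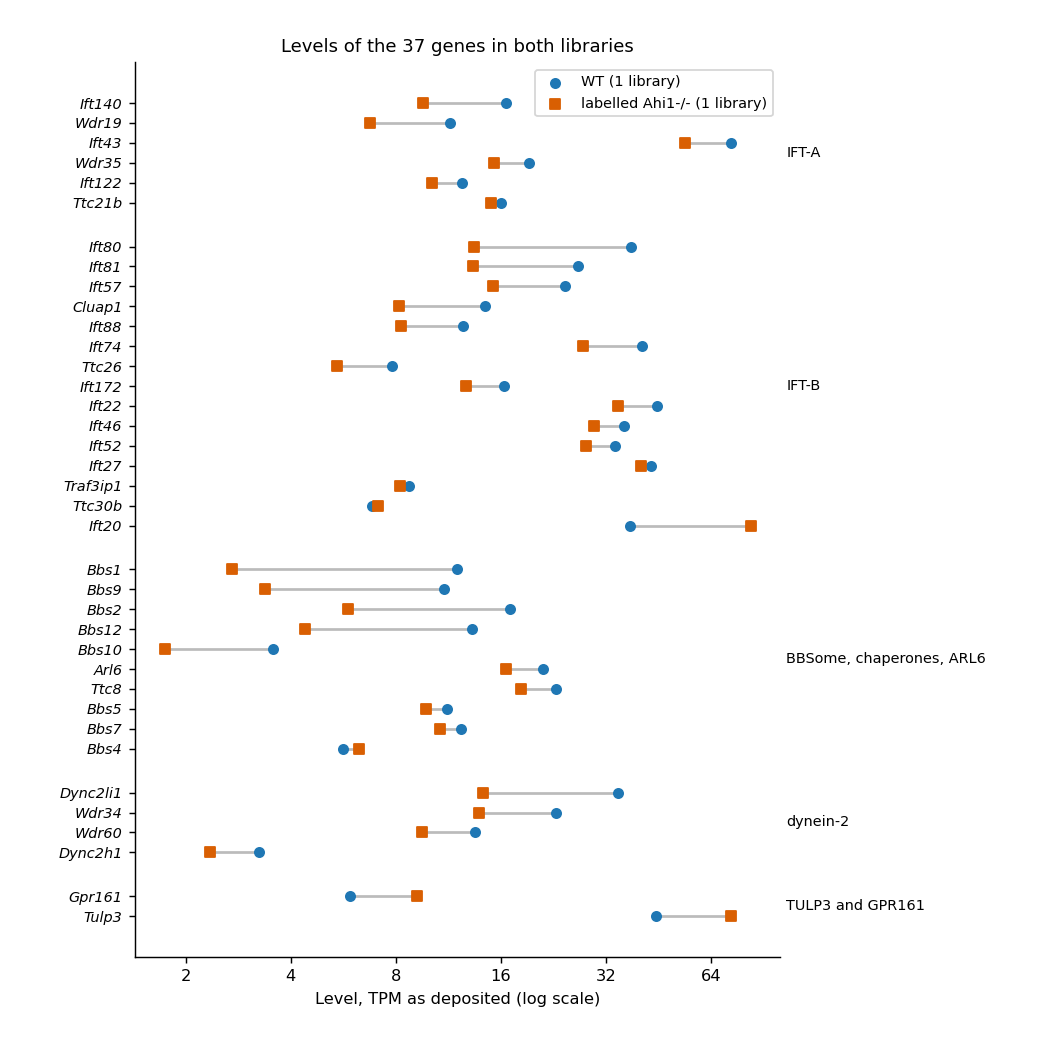
Level of each of the 37 genes in TPM (x axis, log scale) in the WT library (blue circles) and the Ahi1-/- labelled library (orange squares), grouped by complex and ordered by ratio, with 1 library per genotype. The squares lie left of the circles for most genes, farthest for Bbs1 (11.95 and 2.71 TPM), and right of them for Ift20 (37.61 and 83.19 TPM), Tulp3 (44.43 and 73.01 TPM) and Gpr161 (5.91 and 9.22 TPM).

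All 6 genes of IFT-A, the complex that turns trains back and admits membrane proteins, had ratios below 1, but none was 2-fold lower. The median log2 ratio was -0.43. Ift140, of the core, had 792 counts in WT and 451 in the Ahi1-/- labelled library (16.55 and 9.57 TPM), 1.77-fold lower (1.58 to 1.99). Wdr19, also of the core, had 530 and 304 counts (11.48 and 6.77 TPM), 1.76-fold lower (1.52 to 2.03). The third core gene, Ift122, differed less, with 466 and 374 counts (12.39 and 10.19 TPM), 1.26-fold lower (1.09 to 1.44). Its interval does not overlap those of Ift140 and Wdr19.

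Among the peripheral IFT-A subunits, Ift43 was the most abundant of all 37 genes in WT. It had 518 and 375 counts (73.02 and 53.95 TPM), 1.39-fold lower (log2 interval -0.67 to -0.28). Wdr35 had 776 and 604 counts, 1.30-fold lower (1.16 to 1.44). Ttc21b, mutated in human nephronophthisis, had 665 and 609 counts (16.04 and 15.01 TPM, log2 ratio -0.14, -0.30 to 0.02). Here too no difference could be detected at this depth.

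The 4 genes of dynein-2, the motor of the return trip, among the 37 were all lower with intervals below 0. Dync2li1 (Entrez gene 213575), the light intermediate chain that stabilises the motor, had 425 counts in WT and 170 in the Ahi1-/- labelled library (34.74 and 14.23 TPM), 2.52-fold lower (2.11 to 3.03). Wdr34, an intermediate chain, had 380 and 223 counts (23.09 and 13.88 TPM), 1.72-fold lower (1.45 to 2.04). Wdr60, the other intermediate chain, had 480 and 333 counts (13.47 and 9.50 TPM), 1.45-fold lower (1.26 to 1.68). Dync2h1, the heavy chain with the motor domain, had 399 and 278 counts, 1.45-fold lower (1.24 to 1.69). It is a long gene and had the lowest level of the 37 in WT, 3.24 TPM, against 2.35 TPM in the other library. The median log2 ratio of the 4 was -0.66, and the summed level was 74.54 TPM in WT and 39.96 TPM in the Ahi1-/- labelled library.

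TULP3 and its cargo went the other way. Tulp3 (Entrez gene 22158), the Tubby family adaptor that binds IFT-A and membrane phosphoinositides, had 1340 counts in WT and 2210 in the Ahi1-/- labelled library (44.43 and 73.01 TPM), 1.63-fold higher (1.53 to 1.75). Gpr161 (Entrez gene 240888), a ciliary receptor that restrains Hedgehog signalling and enters cilia with TULP3, had 376 and 575 counts (5.91 and 9.22 TPM), 1.52-fold higher (1.33 to 1.73). Together with Ift20, they were the 3 genes whose intervals lay above 0. Intervals below 0 were found for 28 of the 37 (75.7%, against 42.9% of all genes with the minimum count), and 6 spanned 0. Intervals above 0 were found for 38.8% of all genes. Both genes drop under 1.5-fold with chromosome medians subtracted (Tulp3 1.49-fold and Gpr161 1.24-fold).

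**Figure D3:**
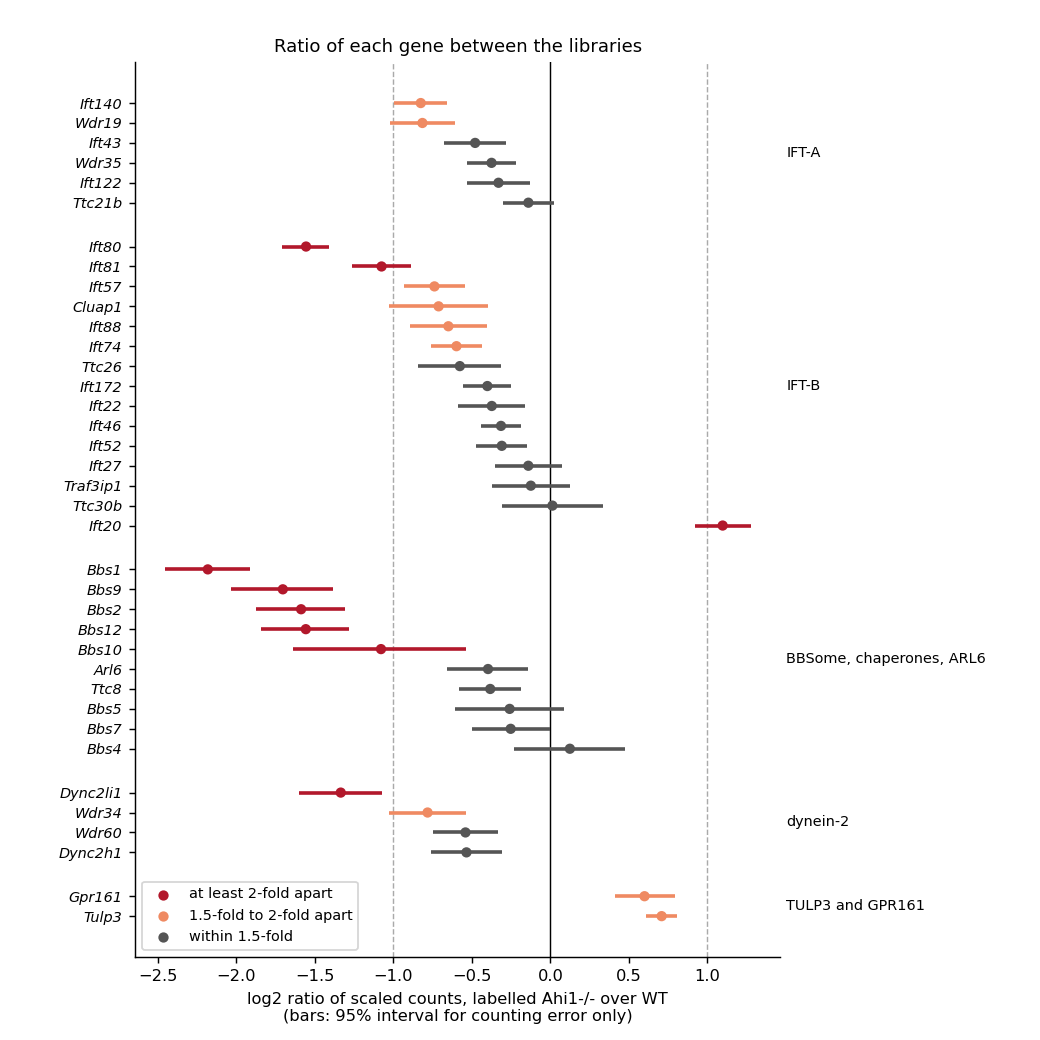
Log2 ratio of scaled counts, Ahi1-/- labelled library over WT (x axis), for each of the 37 genes by complex, with bars for the 95% interval of counting error only and dashed lines at 2-fold. Points left of 0 are lower in the Ahi1-/- labelled library, from -2.18 for Bbs1, and 3 genes have bars wholly right of 0, up to 1.10 for Ift20.

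The 37 genes lie on 16 chromosomes. The median log2 ratio over measured genes was lowest among these 16 on chromosomes 19 (-0.62), 8 (-0.36) and 17 (-0.30), which hold Bbs1, Bbs2, and both Ift140 and Dync2li1, respectively. Without these 4 genes, the other 33 held 5 genes at least 2-fold lower and 1 higher, with a median log2 ratio of -0.40. With the median of its own chromosome subtracted, Bbs1 was at -1.56, Bbs2 at -1.23, Dync2li1 at -1.04 and Ift140 at -0.53. Of the 8 lower genes, 7 stayed past 2-fold by this measure, and Ift81 did not (1.91-fold). The part of chromosome position in these ratios was not tested.

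Of the 37 genes, 8 start within 1000 bases of a measured gene on the opposite strand in GENCODE M21, which makes 8 pairs that start back to back. In 6 pairs both genes lay on the same side of 0, and in 2 on opposite sides. Of all measured genes, 50.7% lay below 0. Among the 6, the intervals of Cetn4 beside Bbs12 (-1.02 to 0.02) and of 1700037C18Rik beside Cluap1 (32 and 18 counts, -1.76 to 0.03) span 0. Beside Ift80, Smc4, a condensin subunit that compacts chromosomes in mitosis, had 9312 and 2856 counts (log2 ratio -1.72, -1.78 to -1.66), near the -1.56 of Ift80. Beside Ift20, Tnfaip1 had 1958 and 3300 counts (log2 ratio 0.74, 0.66 to 0.82), against 1.10 for Ift20. Those neighbours were on the same side as the transport gene. By contrast, Arcn1, a coatomer subunit beside Ift46, had 5754 and 7729 counts (log2 ratio 0.41, 0.36 to 0.46), against -0.31 for Ift46. Dcun1d5 beside Dync2h1 also lay above 0 (log2 ratio 0.33, 0.22 to 0.44), against -0.53. Mbd4, a DNA repair glycosylase beside Ift122, was lower than its neighbour, at -1.34 against -0.33. Measured genes on the opposite strand overlap Bbs12 (Cetn4), Bbs4 (Adpgk), Ift140 (Tmem204) and Ift74 (Lrrc19). The sources used here do not say whether the counting used strand, so reads in the shared parts cannot be assigned. Cetn4 had 77 and 55 counts and Adpgk 854 and 1448.

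**Figure D4:**
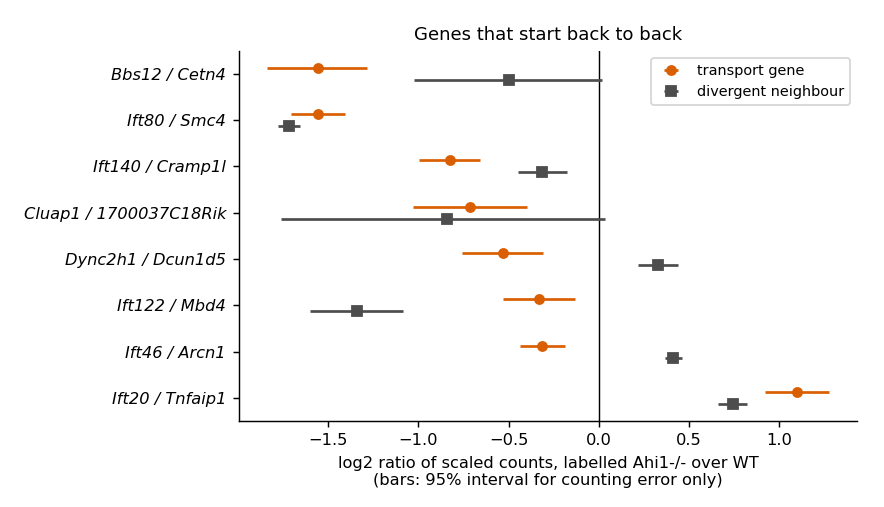
Log2 ratio of scaled counts, Ahi1-/- labelled library over WT (x axis), for 8 transport genes (orange circles) and the gene that starts back to back with each (grey squares), with bars for the 95% interval of counting error only. Ift80 and Smc4 lie together near -1.6, Ift20 and Tnfaip1 both lie above 0, and Ift46 and Dync2h1 lie on the other side of 0 from their neighbours.

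Other genes of ciliary transport did not lie below 0 as a group. The list of further subunits of IFT, the BBSome, dynein-2 and kinesin-2 had 19 genes, with 3 at least 2-fold lower, 2 higher and a median log2 ratio of -0.02. The lower genes were Dynlt1a (300 and 123 counts, 2.46-fold lower), Dynlt1c (2.12-fold) and Dynlt1b (2.01-fold, named after its value was seen), near-identical dynein light chain copies on chromosome 17 whose single values are uncertain. They cannot be counted as 3 separate calls. The higher ones were Ttc30a1 (2.23-fold) and Dynlt3 (1066 and 2183 counts, 2.03-fold), another light chain. The kinesin-2 motor genes Kif3a and Kif3b, which were named after their values were seen, had log2 ratios of -0.53 and 0.17. Of 9 kinases and regulators of trains, 1 was at least 2-fold lower (Mok, 103 and 51 counts, 2.04-fold) and none higher, with a median of 0.07 over 8 measured.

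Membrane cargo and vesicle genes were mixed. Of all genes with at least 50 counts, 10.3% were at least 2-fold lower and 16.0% higher. Among 16 Tubby family and ciliary membrane genes, of which 10 were measured, Tulp4 was 2.43-fold higher (2548 and 6253 counts) and Arl3, a GTPase that unloads lipidated cargo in cilia and lies on chromosome 19, was 2.86-fold lower (2025 and 715 counts). Their median log2 ratio was 0.11. Of 14 genes of the RAB8 and RAB11 vesicle cascade, Ehd3 was 10.7-fold higher (40 and 432 counts), Rab23 2.75-fold higher (660 and 1830 counts) and Exoc6, on chromosome 19, 6.47-fold lower (340 and 53 counts), with a median of 0.12.

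RFX genes and genes of other transcription factors listed for cilia lay below 0 in 6 of 7 measured, against 50.7% of all measured genes. The median log2 ratio was -0.65, which is the value of Rfx5 (710 and 456 counts, named after its value was seen). Of the 10 found in the deposited matrix, 5 reached 50 counts. Rfx2 (225 and 52 counts, 4.37-fold lower) lies on chromosome 17 and Rfx3 (337 and 146 counts, 2.33-fold lower) on chromosome 19. Foxj1, the driver of motile cilia, had 5 and 6 counts, too few to compare. All 68 genes of these lists were chosen with earlier results of these data known.

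Other groups of genes differed between the same libraries, where 10.3% of all genes with 50 counts were at least 2-fold lower and 16.0% higher. Of 15 proliferation genes, 12 were at least 2-fold lower in the Ahi1-/- labelled library and none higher, with summed levels of 3074.91 and 1166.09 TPM. Red cell markers (8 of 10 at least 2-fold lower, summed 1825.94 and 24.05 TPM) and cartilage markers (7 of 7, summed 994.15 and 42.60 TPM) were lower too. Skeletal muscle markers (2 of the 3 found at least 2-fold higher, summed 4.66 and 92.31 TPM) and markers of neurons and glia (2 of 6, summed 28.76 and 90.59 TPM) were higher. The muscle regulators Myod1 and Myog, also listed, were not found in the deposited matrix. Endothelial markers (0 of 6 reached 50 counts, so none could be called, summed 1.75 and 1.39 TPM) and leukocyte markers (summed 21.61 and 15.57 TPM) were scarce in both. Of the 6 leukocyte markers, 3 reached 50 counts, and 1 was at least 2-fold lower (Cd14, 199 and 85 counts). Their counting intervals went both ways, with 3 below 0 and 2 above. The 2 above were Adgre1 (4 and 39 counts) and Itgam (12 and 39 counts), both too low to be called. Fibroblast markers were at least 2-fold higher in 8 of 9, with summed levels of 7937.54 and 21306.4 TPM, and Vim, the mesenchymal intermediate filament gene, was abundant in both (4545.77 and 4709.6 TPM). For multiciliated epithelium, whose cells are rich in IFT transcripts, 12 of the listed markers were found in the deposited matrix and others were not. Of these 12, 6 reached 10 counts over both libraries, and all 12 summed to 5.58 and 7.6 TPM. The part of these groups in the ratios of the transport genes was not tested.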

How the data were processed

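Per the file headers, the deposited matrix gives a read count and a TPM value per gene and library for 17260 mRNA genes. The values deposited by the authors as read counts are expected counts, estimates that need not be whole: 65.1% of WT values and 64.4% of the others were whole, and 14 of the 37 genes had a count that was not whole. Another table deposited by the authors holds FPKM for 3872 genes. RSEM 1.2.12, Bowtie2 2.2.5, HISAT2 2.0.4 and build mm8 stand in the submitters' processing notes, without roles. The sources used here do not give annotation, strand use or filters. All 6 value columns were used.

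Counts were rounded and scaled with TMM (edgeR 4.0.16, R 4.3.3). Ratios carry exact 95% Clopper-Pearson intervals for counting error. A gene at 0 in 1 library would be set to a floor of 3 counts; none of the 37 was. A gene was counted past 2-fold or 1.5-fold where its higher count reached 50, and entered medians with at least 10 counts summed. All 37 genes are accounted for: in full those at least 1.5-fold apart, the most abundant of each complex and most others. From each other pathway list, up to 4 genes past 2-fold with the largest ratios are named, and any further one is marked as named after its value was seen. The members and lists were chosen with earlier results of these data known. The calculation was tested on simulated data. Chromosomes and promoters came from RefSeq GRCm38.p6, gene order from GENCODE M21; neither is the noted build. Python 3.11.15, numpy 2.4.6, pandas 2.3.3 and scipy 1.17.1 were used.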

Additional observations from a re-analysis of the deposited data

How the results depend on the processing

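No paired analysis was possible because each genotype had 1 library. Alternatives were scaling by DESeq2 1.42.0 size factors, total counts or the upper quartile, ratios of TPM, the FPKM scale (chosen after seeing the data), other count minimums, and chromosomes. The number of genes at least 2-fold lower (8) was 7 or 8 under each, except 5 without chromosomes 8, 17 and 19, where 4 fewer genes enter. The number at least 2-fold higher was 0 in place of 1 by total counts, on the FPKM scale and with chromosome medians subtracted. At 1.5-fold, the number higher was 1 in place of 3 on the FPKM scale and with chromosome medians subtracted, and 2 by total counts. The number at least 1.5-fold lower (15) ran from 11 without chromosomes 8, 17 and 19 to 19 by total counts and on the FPKM scale. Of the lower genes, Ift74, Ift140, Ift43, Ttc26, Dync2h1 and Wdr60 each crossed 1.5-fold under an alternative. Ift74 was 1.46-fold lower by the upper quartile and 1.47-fold by the ratio of TPM. Total counts shifted the median of all genes by -0.11, and the FPKM scale also by -0.11. The median over the 37 genes and that of each complex kept its sign under the alternatives run for it. Each also stayed between the medians of its genes' lower and upper counting limits, which are not an interval for the median itself. Subtracting chromosome medians moved 9 of the 37 genes out of their counting intervals, the FPKM scale 2 and total counts 1. Unrounded counts moved no gene out of its interval. With 43 to 2210 counts a gene, depth limits Bbs10, Bbs4 and Bbs5 most, and differences between cultures cannot be estimated.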

Other observations

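The authors' deposited table of FPKM values lists 8 of the 37 genes, and they are the 8 that were at least 2-fold lower by scaled counts. That table comes from the same libraries, so the overlap is not independent of the calls made here. In that authors' deposited table, Bbs1 had 5.87 FPKM in WT and 1.19 in the Ahi1-/- labelled library, and Dync2li1 had 17.07 and 6.25 FPKM. Ift20 is not in it. Over the 2052 genes with at least 1 FPKM in both libraries, no gene of the authors' deposited table had an absolute log2 FPKM ratio under 1, and the log2 FPKM ratio lay 0.16 below the log2 TPM ratio. Moved by that difference, the TPM ratio of Ift20 would be 1.98-fold.

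Levels of the 37 genes were correlated between the libraries, though ranks shifted for some, such as Ift80 from 6 in WT to 16. Across genes, which are not replicates and share both libraries, Pearson's r of log2 TPM was 0.86. The BBSome group as a whole held 130.1 TPM in WT and 79.62 TPM in the Ahi1-/- labelled library, IFT-A 148.7 and 110.81 TPM, and IFT-B 391.3 and 335.42 TPM, of which Ift20 alone made up 37.61 and 83.19 TPM.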
